A study of Homo sapiens with 4 samples.

Results

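Senescence driven by an activated RAS oncogene was compared with normal growth in IMR90 cells, a line of human lung fibroblasts, by poly(A) RNA-seq. The comparison takes every gene that carries a name in the deposited files and reached 1 FPKM (fragments counted per length of transcript and per size of the library) in at least 1 of both libraries. That rule kept 11766 of 22679 named genes, of which 10489 reached 1 FPKM in both libraries, 574 in the senescent library only and 703 in the growing library only. A gene in either of the last groups entered through the library in which it was higher, so counts over the genes compared are descriptions.

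All cells were at passage 16 in DMEM with 10% FBS. Growing cells carried the empty retroviral vector pBabe and were grown for 13 days before RNA was taken. Cells in oncogene-induced senescence (OIS) carried a retroviral ER:H-RasV12 construct, a form of mutant HRAS that tamoxifen switches on, and had 10 nM tamoxifen for 8 days. The other 2 libraries came from cells that expressed a Flag-tagged, cleaved form of the histone H3.3 (H3.3cs1), taken at day 3 (early) and day 13 (late) after infection, and their values are given beside the members as further levels in the same line. There was 1 library in each group, so no replicate check and no test was possible, and each difference describes these libraries. OIS differed from growing in its construct and in tamoxifen. The total culture time of OIS is not given and may have differed from the 13 days of growing cells. These factors cannot be told apart here, since no library with tamoxifen alone was used.

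Differences are given as log2(FPKM + 1) in OIS minus the same in growing, and folds are taken from that difference, so they are smaller than the plain ratio where values are low. "Rose" and "fell" are used for differences of at least 2-fold. By that rule 1112 genes (9.45%) were higher in OIS and 995 (8.46%) were lower, and 9659 (82.1%) lay within 2-fold. These percentages are the background against which every count of members is to be read. Of the changed genes 52.8% were higher. Setting the named genes of both libraries to the same sum moves the median of all genes by -0.21 and gives 836 higher and 1390 lower (37.6% higher), so the balance of directions depends on the scaling.

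HRAS itself stood at 47.4 FPKM in growing cells, 3153 in OIS, 49.8 in early and 41.9 in late H3.3cs1 cells, so the library labelled OIS alone was high. FPKM per gene does not separate the RNA of the construct from that of the endogenous gene. Fibroblast markers were present in both libraries, with VIM (vimentin) at 3281 FPKM in growing cells and 2858 in OIS and FAP at 37.8 FPKM in growing cells and 33.4 in OIS, although 8 of the 16 compared were lower in OIS and 0 were higher. Of the 16 leukocyte markers 0 were compared (15 were below 1 FPKM and CD68 shares a locus with MPDU1), and PTPRC (CD45) stood at 0 FPKM in growing cells and 0.00619 in OIS. Of 16 epithelial markers 4 were compared, 0 rose and 2 keratin genes fell, their sum going from 91.3 to 22.2 FPKM (72.5 and 185 in early and late H3.3cs1 cells), with CDH1 (E-cadherin) listed at 0 in OIS. Of 12 endothelial markers 5 were compared and 3 rose, their sum going from 12.4 to 31.9 FPKM (3.79 and 7.09 in early and late H3.3cs1 cells), while CDH5 (VE-cadherin) is listed at 0 in all 4 libraries. In RNA from a whole culture, fewer cells of a type and less RNA per cell cannot be told apart. Among 20 widely used reference genes 18 stayed within 2-fold, with GAPDH at 3468 FPKM in growing cells and 3652 in OIS and TBP at 7.3 FPKM in growing cells and 6.34 in OIS, while TUBB fell from 1019 to 348 FPKM and ALAS1 rose from 15.5 to 50.4 FPKM. A value of 0 can be a failed estimate: TAPBP is listed at 0 in all 4 libraries, and PLEC is listed at 0 in OIS and early H3.3cs1 cells but at 128 FPKM in growing and 133 in late cells. Genes listed at 0 in growing cells (40) or OIS (34) all count as changed, and no fold is printed for them.

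RAS proteins are switches on the inner face of the cell membrane that pass growth signals to the RAF, MEK and ERK kinases. A RAS protein locked in its active form first drives division and then, in normal fibroblasts, a permanent arrest held by the inhibitors of cyclin-dependent kinases. Cells in this arrest secrete cytokines, chemokines, proteases and growth factors, known together as the senescence-associated secretory phenotype, under the control of NF-kappaB and C/EBP-beta and with interleukin 1 alpha as an early, membrane-bound trigger. Other known features are loss of lamin B1, remodelled chromatin and a cell body that is large and flat.

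The change was spread over a small part of the transcriptome but reached far in some genes. A difference of 8-fold or more was seen for 131 genes that were higher and 114 that were lower, and of 32-fold or more for 41 and 10. The central 90% of genes lay between differences of -1.37 and 1.43, with a median of 0.04. From below 1 FPKM in growing cells, 71 genes came to at least 10 FPKM in OIS and 13 to at least 100. In the other direction 81 genes went from at least 10 to below 1 FPKM. The 40 largest rises took up 0.0649% of the FPKM of named genes in growing cells and 5.33% in OIS, with 0.0654% in H3.3cs1 early and 0.0710% in late. The 40 largest falls went from 0.376% to 0.0101%, with 0.113% and 0.216% in the H3.3cs1 libraries. Among the 470 genes whose mean log2(FPKM + 1) over both libraries was below 1, 21.9% were higher and 13.6% lower, more than over all genes. A mean below 1 requires a library below 1 FPKM. Each of these genes therefore entered through its higher library, so the filter itself favours differences among them. Genes at 1000 FPKM or more numbered 37 in growing cells and 73 in OIS. At the edges of the rule, MYO10 at 29.7 FPKM in growing cells and 60.4 in OIS counted as higher and ITGB5 at 73.7 FPKM in growing cells and 148 in OIS did not, while ITGA6 at 58.9 FPKM in growing cells and 28.9 in OIS counted as lower and PRDX6 at 304 FPKM in growing cells and 152 in OIS did not.

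**Figure D1:**
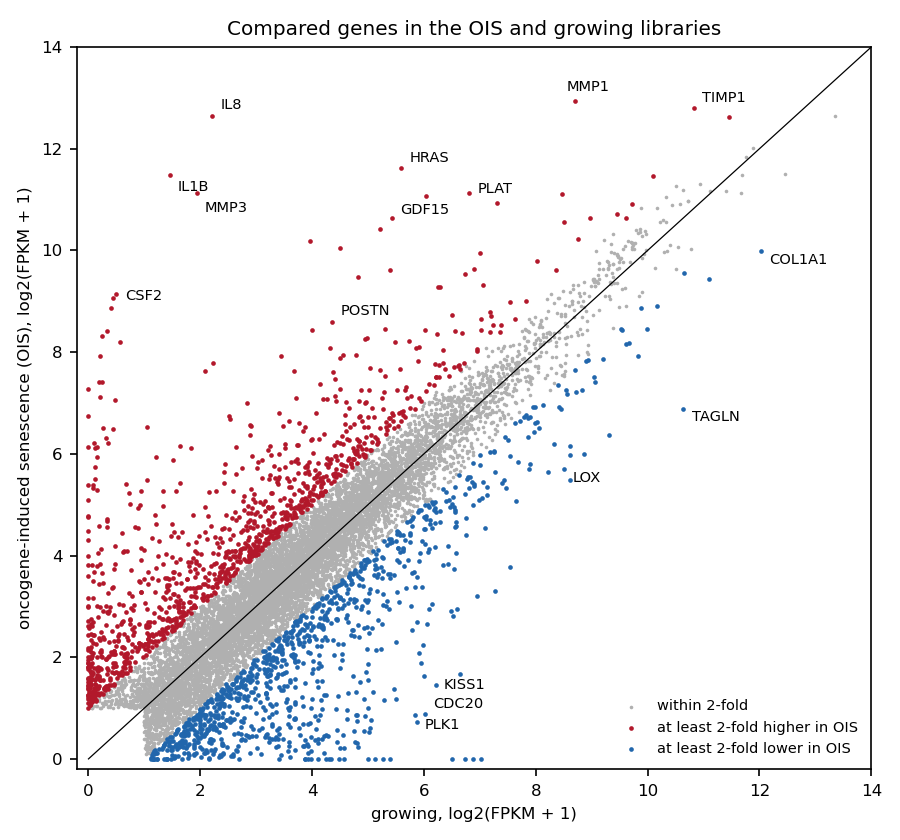
Each point is 1 of the 11766 compared genes, with log2(FPKM + 1) in growing cells on the x axis and in OIS on the y axis. Red points are at least 2-fold higher in OIS (1112), blue points at least 2-fold lower (995) and grey points within 2-fold. The line marks equal values, and the largest rises, such as IL8 and IL1B, stand far above it from near 0 in growing cells.

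Of the 20 genes with the highest FPKM in each library, 12 were shared and 8 were in the OIS list only. MMP1, an interstitial collagenase, had the highest level of all named genes in OIS, at 416 FPKM in growing cells, 7849 in OIS, 52.9 in early and 108 in late H3.3cs1 cells. Its inhibitor TIMP1 came next at 1807 FPKM in growing cells, 7098 in OIS, 1082 in early and 1507 in late H3.3cs1 cells. The 8 were MMP1, IL8, HRAS, IL1B, PLAT, COL6A2, MMP3 and FTL, and TIMP1 was in both lists. The 8 in the growing list only were COL1A1, COL1A2, TAGLN, TPM2, ANXA2, RPS2, TMSB4X and RPL41. The first 4 encode collagen I chains and actin-binding proteins and were lower in OIS by at least 2-fold. ANXA2 was lower within 2-fold. RPS2 (1694 FPKM in growing cells and 2002 in OIS), TMSB4X (1682 and 2000.5) and RPL41 (1537 and 1936) were higher in OIS within 2-fold. ACTB was in both lists.

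Promoter sequences are shown for the 2 groups of genes that moved furthest, the chemokines and cytokines among the rises and the genes of mitosis among the falls, because motifs known for each group can be read in them. Promoters are those of RefSeq on GRCh38.p14, from 250 bases before to 50 after the start, and 8912 of the 11090 symbols looked up (80.4%) had one. Sequences are printed 5′ to 3′ on the strand of the gene, and motifs were matched on both strands: NF-kappaB as GGG and TCC with any 4 bases between them, a stricter kappaB form as GGG and TTTCC with any 2 bases between them (each of its matches is also an NF-kappaB match), AP-1 as TGANTCA, the cell cycle homology region (CHR) as TTTGAA, and CCAAT. NF-kappaB and AP-1 are families of transcription factors that act on inflammatory genes. CHR elements are bound by the DREAM complex, which silences cell cycle genes in resting cells, and CCAAT boxes by NF-Y. A match is a description of letters and neither a proven site nor a cause.

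Upstream of IL8 (CXCL8 in RefSeq), the largest rise, the 250 bases before the start site hold an AP-1 match, in capitals:
IL8 (chr4:73740319-73740568, plus strand): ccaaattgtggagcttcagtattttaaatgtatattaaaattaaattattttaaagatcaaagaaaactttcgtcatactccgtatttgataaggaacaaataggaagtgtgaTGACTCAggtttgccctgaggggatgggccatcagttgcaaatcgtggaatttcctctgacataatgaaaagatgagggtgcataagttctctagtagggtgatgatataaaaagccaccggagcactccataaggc
The exact stricter kappaB letters are not in this window. It does hold ggaatttcc, with t where the first g of GGG would stand, so only that letter keeps it from a match. Stretches of 60 bases around the stricter kappaB match, in capitals, follow for genes of the chemokine and cytokine lists, beginning between 98 and 124 bases before the start site. The first 7 rose and IL32, shown for contrast, did not.
CXCL5 (chr4:73998734-73998793, minus strand): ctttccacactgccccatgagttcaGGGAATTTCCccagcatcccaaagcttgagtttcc
CXCL1 (chr4:73869289-73869348, plus strand): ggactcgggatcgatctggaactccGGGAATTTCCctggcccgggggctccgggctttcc
CXCL3 (chr4:74038734-74038793, minus strand): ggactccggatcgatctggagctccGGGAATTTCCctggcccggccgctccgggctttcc
CCL20 (chr2:227813738-227813797, plus strand): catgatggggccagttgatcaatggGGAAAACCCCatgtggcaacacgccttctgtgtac
CXCL2 (chr4:74099239-74099298, minus strand): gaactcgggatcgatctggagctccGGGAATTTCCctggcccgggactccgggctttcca
CXCL6 (chr4:73836563-73836622, plus strand): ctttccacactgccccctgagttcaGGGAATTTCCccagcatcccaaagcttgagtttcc
IL6 (chr7:22727102-22727161, plus strand): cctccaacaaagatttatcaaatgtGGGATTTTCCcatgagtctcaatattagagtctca
IL32 (chr16:3065279-3065338, plus strand): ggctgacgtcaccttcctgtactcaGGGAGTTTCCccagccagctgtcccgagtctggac
IL32, a cytokine gene with such a match, was at 20.4 FPKM in growing cells, 20.2 in OIS, 13 in early and 8.02 in late H3.3cs1 cells, so the match alone did not go with a rise.

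The stricter kappaB match was in 9 of 43 promoters of the chemokine and cytokine lists (20.9%), against 1.95% of the 7379 promoters of genes within 2-fold and 1.92% of all 27195 promoters in the table. AP-1 matches were also in 20.9% of the chemokine and cytokine promoters, against 4.02% within 2-fold and 7.73% of all. The 81 promoters of genes that rose by 8-fold or more had the stricter kappaB match in 9.88% and AP-1 in 16.0%, and the looser NF-kappaB letters in 39.5% against 26.8% within 2-fold and 22.2% of all. The 8 promoters behind that 9.88% include those of CXCL1, CXCL2, CXCL3, CXCL5, CXCL6, CCL20 and IL6, already counted above. Several of these genes are close copies of each other, so the shares are not independent. The contractile and YAP lists, which had no riser, held the looser form at least as often, in 44.4% and 53.3% of their promoters. The stricter form was in 11.1% and 6.67% of them and AP-1 in 3.70% and 6.67%, less often than in the chemokine and cytokine promoters.

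Stretches of 76 bases around a CHR match follow for some of the genes of mitosis that were among the 40 largest falls, beginning between 80 and 125 bases before the start site. Others with a match are not printed, such as NCAPG, which has no CCAAT match. AURKB, CCNB1 and KIF20A, also among these falls, have no CHR match. Capitals mark CHR and CCAAT matches on either strand, so that TTCAAA and ATTGG are the reverse letters.
PLK1 (chr16:23678800-23678875, plus strand): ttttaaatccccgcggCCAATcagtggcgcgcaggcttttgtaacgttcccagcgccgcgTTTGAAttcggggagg
CDC20 (chr1:43358856-43358931, plus strand): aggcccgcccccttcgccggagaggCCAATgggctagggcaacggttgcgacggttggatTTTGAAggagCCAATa
ANLN (chr7:36389782-36389857, plus strand): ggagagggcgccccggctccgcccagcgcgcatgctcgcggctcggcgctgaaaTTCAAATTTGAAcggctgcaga
CCNB2 (chr15:59105057-59105132, plus strand): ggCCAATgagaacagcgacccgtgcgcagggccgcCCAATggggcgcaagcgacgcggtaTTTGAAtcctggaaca
PRC1 (chr15:90994540-90994615, minus strand): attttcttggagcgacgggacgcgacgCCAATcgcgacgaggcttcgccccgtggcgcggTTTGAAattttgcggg
MKI67 (chr10:128126437-128126512, minus strand): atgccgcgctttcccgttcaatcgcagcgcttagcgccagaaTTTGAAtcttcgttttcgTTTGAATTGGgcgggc
CDCA8 (chr1:37692433-37692508, plus strand): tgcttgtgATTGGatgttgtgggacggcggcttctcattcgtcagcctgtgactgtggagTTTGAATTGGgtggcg
These 7 genes encode a mitotic kinase (PLK1), an activator of the anaphase-promoting complex (CDC20), cytokinesis proteins (ANLN and PRC1), a cyclin (CCNB2), the proliferation antigen Ki-67 (MKI67) and a subunit of the chromosomal passenger complex (CDCA8).

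CHR matches were in 41 of 70 promoters of the kinetochore, mitotic kinesin and spindle lists (58.6%), against 8.92% of promoters of genes within 2-fold and 15.4% of all promoters. CCAAT was in 72.9% of them, against 36.6% within 2-fold and 35.7% of all. The 77 promoters of genes that fell by 8-fold or more had CHR in 49.4% and CCAAT in 59.7%, and AP-1 in 3.90%. Over all 732 promoters of lower genes CHR was in 19.9%, and over the 801 of higher genes in 7.62%. Some smaller lists also carried their textbook motif often. The interferon response element (GAAA and GAAA with any 2 bases between them) was in 11 of 16 promoters of interferon-stimulated genes (68.8%), against 2.64% of compared genes and 3.65% of all promoters, although most of those genes did not move. The serum response CArG box was in 5 of 27 contractile promoters (18.5%, against 1.12% of compared genes and 1.29% of all), the E2F site TTTCGCGC in 5 of 43 replication promoters (11.6%, against 1.03% and 0.548%) and the TEAD site GGAATG in 5 of 15 promoters of the YAP list (33.3%, against 10.7% and 14%).

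**Figure D2:**
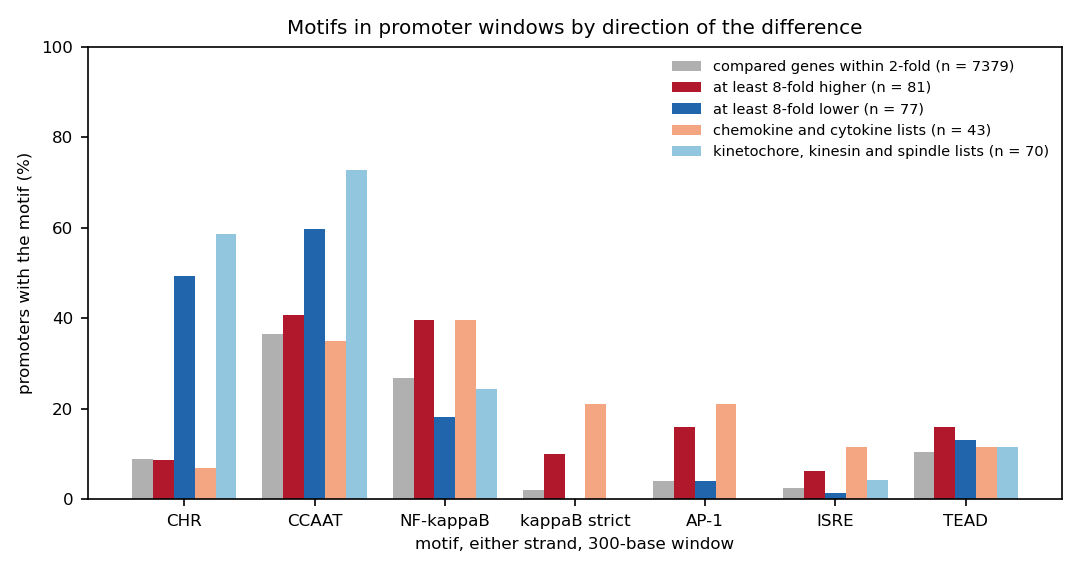
Bars give the percent of promoters that hold each motif on either strand, from 0 to 100%, for genes within 2-fold (n = 7379), genes at least 8-fold higher (81) or lower (77) in OIS, the chemokine and cytokine lists (43) and the lists of mitosis (70). CHR and CCAAT bars are tallest for the genes of mitosis (58.6% and 72.9%), and the AP-1 and stricter kappaB bars for the chemokines and cytokines (20.9% each).

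Genes were then read by family, in 85 lists of related genes described by counts past 2-fold and by the median difference. Of 2290 entries in these lists 1724 were compared, 437 stayed below 1 FPKM in both libraries, 125 lay in loci joined with another gene and 4 had no locus. Lists of mitosis lay lowest, with medians of -3.77 for mitotic kinases and spindle genes and -2.91 for mitotic kinesins, and CXC chemokines lay highest at 6.11. Most of the CXC chemokines compared were below 1 FPKM in growing cells and so entered through OIS. Proteasome subunits (0.07) and aminoacyl-tRNA synthetases (-0.03) stayed near the median of all genes (0.04). Ribosomal proteins lay somewhat above it (0.33), with 37 of 41 above 0 and 1 past 2-fold. With the same sum the median was 0.10 for ribosomal proteins and -0.16 for all genes.

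**Figure D3:**
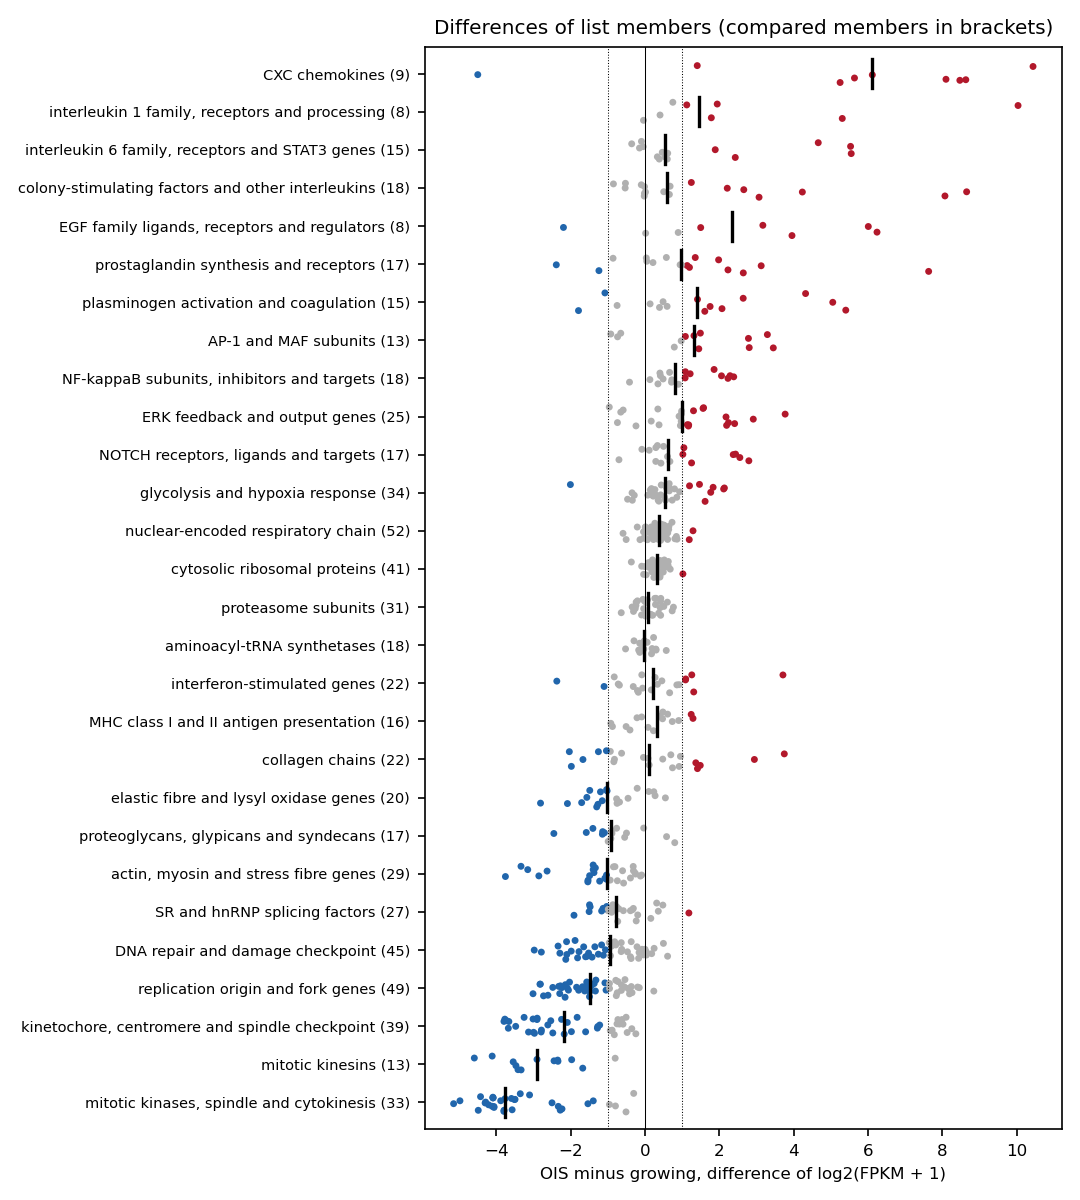
Each point is a compared gene of the list named on the y axis, placed by its difference in log2(FPKM + 1), OIS minus growing; red and blue points are past 2-fold, which dotted lines mark, black bars are medians and brackets give the number of genes compared. The CXC chemokines reach from -4.50 to 10.44, while the proteasome subunits all lie inside the dotted lines.

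The kinase cascade below RAS changed little at the RNA level. Of 13 genes for RAS, RAF, MEK, ERK and their exchange factors compared, 2 rose, HRAS and RASA1, a GTPase-activating protein that turns RAS off, which went from 35.3 to 74.6 FPKM. The other 11 stayed within 2-fold. With both libraries set to the same sum 1 rose, HRAS, and RASA1 did not pass 2-fold. Genes switched on by ERK, many of which feed back on it, were higher: 12 of 25 rose (9 with the same sum) and 0 fell (median 0.98). DUSP6, a phosphatase that removes activating phosphates from ERK, was at 18.9 FPKM in growing cells, 270.3 in OIS, 11.5 in early and 19.3 in late H3.3cs1 cells. SPRY2, a Sprouty inhibitor of receptor signalling, was at 23.3 FPKM in growing cells, 128 in OIS, 17.3 in early and 16.1 in late H3.3cs1 cells. DUSP4, DUSP5, SPRY4, SPRED1 and SPRED3 rose as well, from 0.267, 24.4, 17.4, 10.8 and 7.0 FPKM to 8.53, 119, 82.5, 25.4 and 16.6. All 7 of these were highest in OIS of the 4 libraries. FOSL1, an AP-1 subunit known as an ERK target, went the other way without passing 2-fold, at 163 FPKM in growing cells and 103 in OIS. CCND1, which encodes cyclin D1, was at 594 FPKM in growing cells and 1174 in OIS, just under 2-fold.

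Of 8 ligands of the EGF receptor family listed, 3 rose, HBEGF did not pass 2-fold, and EGF, TGFA, BTC and EPGN stayed below 1 FPKM in both libraries. EREG (epiregulin) was at 0.20 FPKM in growing cells, 89.7 in OIS, 0.548 in early and 0.195 in late H3.3cs1 cells. AREG (amphiregulin) was at 0.0825 FPKM in growing cells, 68.5 in OIS, 0.0425 in early and 0.135 in late H3.3cs1 cells. NRG1 (neuregulin 1), a ligand of the ERBB3 and ERBB4 receptors, went from 11.7 to 196 FPKM, with 7.68 and 27.9 FPKM in H3.3cs1 early and late. All 3 ligands were highest in OIS, and EREG and AREG were below 1 FPKM in the other 3 libraries. The EGF receptor gene EGFR rose 2.82-fold and ERRFI1, an inhibitor of that receptor, 8.99-fold to 352 FPKM. ERBB2, a partner receptor without a ligand of its own, was lower at 25.5 FPKM in growing cells, 4.8 in OIS, 25.2 in early and 41.7 in late H3.3cs1 cells. HBEGF was at 20.5 FPKM in growing cells and 38.8 in OIS.

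Immediate-early transcription factors, which cells switch on within minutes of a signal, rose in part. Of 13 AP-1 and MAF subunits compared 8 rose and 0 fell. FOS stood at 0.557 FPKM in growing cells, 16 in OIS, 0.662 in early and 0.473 in late H3.3cs1 cells. JUNB was at 21.7 FPKM in growing cells, 155 in OIS, 31.3 in early and 19.6 in late H3.3cs1 cells. The small MAF protein MAFF rose 6.98-fold to 133 FPKM, whereas FOSL2, at 21 FPKM in growing cells and 10.6 in OIS, stayed within 2-fold on the lower side. Among EGR and nuclear receptor factors EGR1 rose 5.21-fold to 151 FPKM and NR4A1, NR4A2 and NR4A3 rose 3.87-fold, 3.73-fold and 6.07-fold from low levels. ID2 and ID1, inhibitors of differentiation factors that respond to BMP signals, both fell. ID2 was at 54.3 FPKM in growing cells, 4.81 in OIS, 119 in early and 38 in late H3.3cs1 cells. ID1 was at 66 FPKM in growing cells, 15.7 in OIS, 102 in early and 26.3 in late H3.3cs1 cells. Both were highest in early H3.3cs1 cells and lowest in OIS. KLF2 fell from 8.47 to 1.63 FPKM.

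Among NF-kappaB genes the subunits of the main dimer held while other subunits and several inhibitors rose. RELA, the p65 subunit, was at 39.7 FPKM in growing cells and 52.6 in OIS and NFKB1 at 6.9 FPKM in growing cells and 11.9 in OIS, both within 2-fold. RELB, of the alternative pathway, rose from 5.24 to 25 FPKM, NFKB2 from 18.4 to 43.9 FPKM and REL from 0.428 to 2.02 FPKM. TNFAIP3 (A20), a ubiquitin-editing enzyme that ends the signal, was at 3.22 FPKM in growing cells, 21 in OIS, 2.42 in early and 0.868 in late H3.3cs1 cells. NFKBIA, the inhibitor IkappaB-alpha, was at 13.7 FPKM in growing cells, 52.3 in OIS, 14.5 in early and 5.91 in late H3.3cs1 cells, and TNIP1, a partner of A20, rose to 152 FPKM from 31.6. In all 8 of 18 genes of this list rose (5 with the same sum) and 0 fell. The joined NFKBIZ,NXPE3 locus, in which the atypical IkappaB cannot be separated from its neighbour, went from 13.3 to 85.9 FPKM. CEBPB, the C/EBP-beta gene, stood at 14.9 FPKM in growing cells, 76.1 in OIS, 21.6 in early and 18.8 in late H3.3cs1 cells, and CEBPD rose 2.53-fold. ZC3H12A, a ribonuclease that degrades cytokine mRNAs, was among the 40 largest rises at 2.09 FPKM in growing cells, 70.0 in OIS, 2.23 in early and 3.91 in late H3.3cs1 cells.

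Of 26 transcription factors of mesenchyme and lung fibroblasts compared 19 stayed within 2-fold, 3 rose and 4 fell, with TWIST1 at 10.7 FPKM in growing cells and 10.6 in OIS and TCF21 at 12.8 FPKM in growing cells and 15.9 in OIS. OSR1, an odd-skipped factor of embryonic mesoderm, fell furthest, with 28.1 FPKM in growing cells, 1.84 in OIS, 16.2 in early and 36.8 in late H3.3cs1 cells, the lowest value being that of OIS. NR2F1 fell 2.95-fold and NR2F2 2.26-fold, while ZEB1, a repressor of epithelial genes, rose from 18.8 to 57.4 FPKM and FOXF1, a factor of lung mesenchyme, from 45.7 to 111 FPKM. EHF, an ETS factor usually found in epithelia, came to 38.2 FPKM from 0.117, with 0.0961 and 0.215 FPKM in H3.3cs1 early and late.

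The CXC chemokines had the highest median of the 84 lists with a member compared. Of 16 CXC chemokines listed, 7 stayed below 1 FPKM in both libraries, and of the 9 compared 8 rose and 1 fell. CXCL1, CXCL2, CXCL3, CXCL5, CXCL6, CXCL10 and CXCL11 were below 1 FPKM in growing cells. They entered through OIS and could not have counted as lower, so the filter shaped both the count and the median. The neutrophil-attracting group, which binds the receptor CXCR2, came first. IL8 was at 3.65 FPKM in growing cells, 6433 in OIS, 4.19 in early and 2.4 in late H3.3cs1 cells. CXCL1 was at 0.323 FPKM in growing cells, 467 in OIS, 0.62 in early and 0.0636 in late H3.3cs1 cells. CXCL5 was at 0.359 FPKM in growing cells, 536 in OIS, 0.583 in early and 0.141 in late H3.3cs1 cells. In each of these the OIS value was above 400 FPKM and the other 3 libraries were below 5. CXCL3 came to 341 FPKM, CXCL2 to 73.3 and CXCL6 to 52.7, each from below 0.3 FPKM. CXCL1, CXCL2 and CXCL3, like CXCL5 and CXCL6, are close copies of each other, and reads that map to several of them may have been shared out, so their separate values are uncertain. The 5 copies and IL6 hold the stricter kappaB letters printed above.

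Of 7 CC chemokines compared 4 rose and 0 fell (median 1.65). CCL20, which attracts cells with the receptor CCR6, was at 0.14 FPKM in growing cells, 169 in OIS, 0.109 in early and 0.0857 in late H3.3cs1 cells. CXCL10, an interferon-inducible attractant of T cells, rose to 39 FPKM from 0.0541. CCL3 was at 40.6 FPKM in OIS and is listed at 0 in the other 3 libraries, as is its copy CCL3L1, at 3.0 in OIS. CCL2, the main monocyte attractant of fibroblasts, was at 76.1 FPKM in growing cells, 57.1 in OIS, 22.3 in early and 130.1 in late H3.3cs1 cells, so OIS was lower than growing without passing 2-fold and late H3.3cs1 cells were highest. CCL7, a further monocyte attractant, rose from 0.0409 to 2.27 FPKM, and CXCL11, like CXCL10 an attractant of T cells, was at 1.65 FPKM in OIS and is listed at 0 in growing cells. CCL5 stayed at 5.08 FPKM in growing cells and 4.47 in OIS. CXCL12, the stromal ligand of CXCR4 that keeps stem cells in the bone marrow, fell 22.6-fold, with 27 FPKM in growing cells, 0.236 in OIS, 20.4 in early and 2.56 in late H3.3cs1 cells. So 6 ligands of CXCR2 were high and CXCL12 was low in the same library, while PPBP, also a ligand of CXCR2, stayed below 1 FPKM.

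Interleukin 1 ligands rose along with their receptor. IL1B was at 1.74 FPKM in growing cells, 2869.5 in OIS, 2.5 in early and 1.22 in late H3.3cs1 cells. IL1A was at 0.0634 FPKM in growing cells, 41 in OIS, 0.122 in early and 0.0222 in late H3.3cs1 cells. IL1R1, the signalling receptor, rose from 4.81 to 19 FPKM, whereas its accessory chain IL1RAP was at 2.45 FPKM in growing cells and 4.8 in OIS and the maturing protease CASP1 at 2.38 FPKM in growing cells and 2.28 in OIS, both within 2-fold. IL1RN, the natural antagonist, stayed below 1 FPKM in both. IRAK2, a kinase of the receptor complex, rose 7.3-fold from 3.26 to 30.1 FPKM, while IRAK4, which starts that complex, fell from 7.1 to 1.86 FPKM.

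In the interleukin 6 family the ligands IL6, IL11 and LIF rose and the common receptor did not, while the ligand OSM stayed below 1 FPKM in both libraries. IL6 was at 3.26 FPKM in growing cells, 196 in OIS, 1.36 in early and 7.54 in late H3.3cs1 cells. IL11 was at 21.6 FPKM in growing cells, 1055 in OIS, 8.43 in early and 11 in late H3.3cs1 cells. LIF, a cytokine first known for its effect on leukaemia cells, was at 27.1 FPKM in growing cells, 709.6 in OIS, 14.7 in early and 24.5 in late H3.3cs1 cells. All 3 were highest in OIS, but IL11 and LIF were already above 20 FPKM in growing cells. IL6ST, the shared receptor chain gp130, was at 78.6 FPKM in growing cells and 76 in OIS, while OSMR, a chain for oncostatin M, rose from 27.7 to 105 FPKM and SOCS3, a feedback inhibitor, from 12.4 to 70.9 FPKM. Altogether 5 of 15 compared members rose.

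Colony-stimulating factors divided. CSF2 (GM-CSF) was at 0.413 FPKM in growing cells, 567 in OIS, 0.335 in early and 0.955 in late H3.3cs1 cells. CSF3 (G-CSF) was at 0.183 FPKM in growing cells, 316 in OIS, 1.27 in early and 0.137 in late H3.3cs1 cells. CSF1, the macrophage factor, stood at 11.2 FPKM in growing cells and 7.39 in OIS, within 2-fold. IL24, IL13RA2, IL4R and the stem cell factor KITLG rose as well, to 7.91, 22.6, 55.9 and 91.5 FPKM. IL15 was at 1.93 FPKM in growing cells and 0.623 in OIS and did not pass 2-fold. In the TNF superfamily TNFSF15, known as TL1A, rose to 243 FPKM with at most 0.162 in the other 3 libraries. TNFSF4 (OX40 ligand) fell, with 24 FPKM in growing cells, 1.47 in OIS, 3.81 in early and 17.5 in late H3.3cs1 cells, and FAS, the death receptor, fell from 18.3 to 5.67 FPKM. TNF itself stayed below 1 FPKM in both libraries.

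Genes for several steps of prostaglandin synthesis rose. PTGS2, the inducible cyclo-oxygenase COX-2, was at 0.483 FPKM in growing cells, 292 in OIS, 0.394 in early and 0.766 in late H3.3cs1 cells. PTGS1, the constitutive form, was at 10.4 FPKM in growing cells, 52.7 in OIS, 15.1 in early and 9.24 in late H3.3cs1 cells. PLA2G4A, which frees arachidonic acid, rose from 0.68 to 5.62 FPKM and PTGES, the terminal synthase of prostaglandin E2, from 0.991 to 16.4 FPKM. Of the 4 receptors for that product 2 fell and the other 2, PTGER1 and PTGER3, stayed below 1 FPKM in both libraries. PTGER2 was at 30.7 FPKM in growing cells, 5.07 in OIS, 22.4 in early and 5.49 in late H3.3cs1 cells and PTGER4 fell from 5.34 to 1.68 FPKM. Of the list 8 of 17 compared rose and 2 fell.

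Innate and interferon genes had small medians as groups, although some members passed 2-fold. Of 16 innate sensing and acute phase genes compared 4 rose and 2 fell (median 0.27). In this list and in the next the share of risers was above that over all genes (9.45%). Of 22 interferon-stimulated genes compared 5 rose and 2 fell (median 0.22), with ISG20 from 0.387 to 17.1 FPKM, ISG15 from 25.9 to 65.6 FPKM and GBP1 down from 10.8 to 1.27 FPKM. IFIT3, at 2.32 FPKM in growing cells and 1.67 in OIS, stayed within 2-fold. Among MHC genes HLA-B and HLA-E rose 2.36-fold and 2.45-fold, though HLA-C (61.1 FPKM in growing cells and 102 in OIS) did not pass, and reads of these similar genes may be shared out. The complement component C3 rose from 0.0667 to 11.8 FPKM and the acute phase protein SAA1 from 0.077 to 4.38 FPKM.

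**Figure D4:**
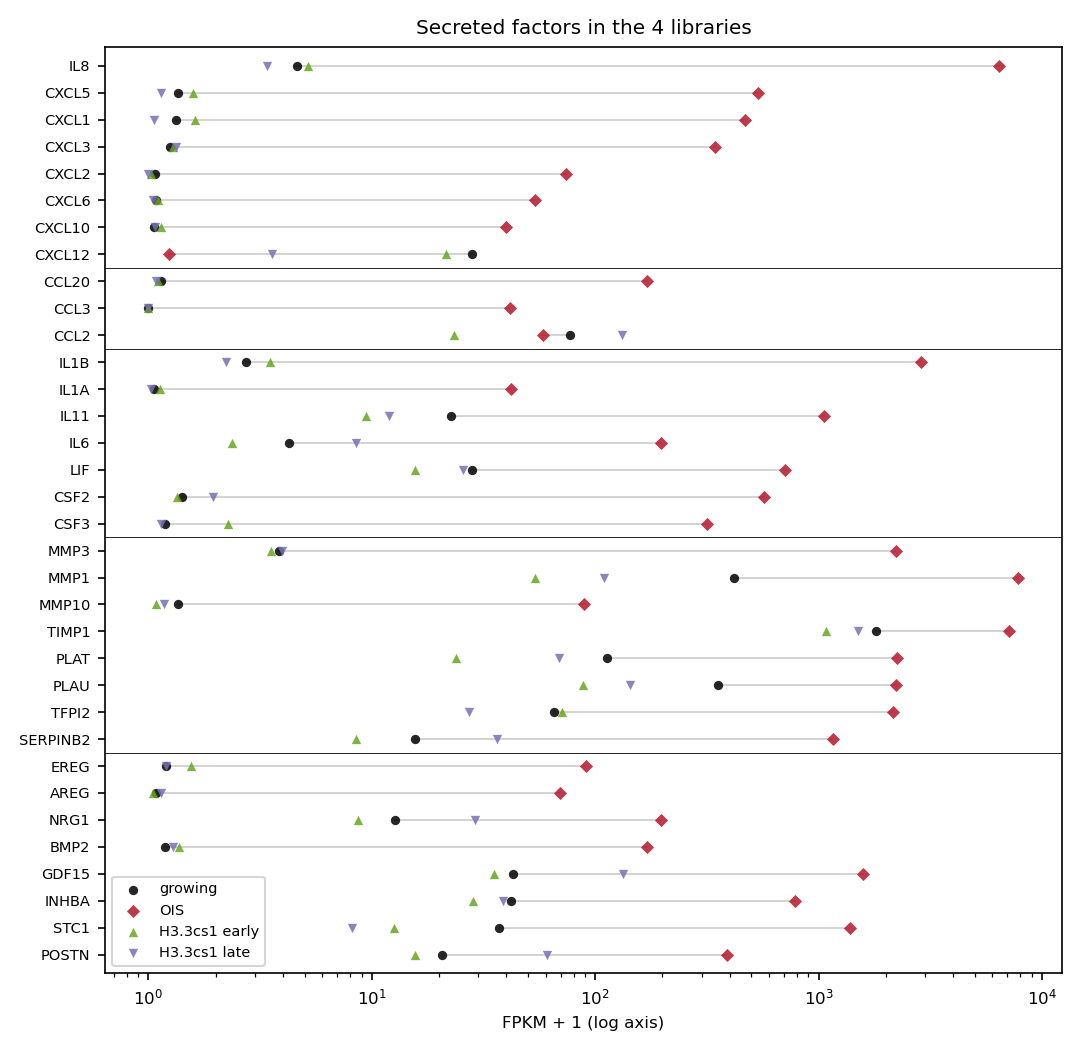
Level of 34 secreted genes in the 4 libraries as FPKM + 1 on a log axis, with black circles for growing, red diamonds for OIS, green triangles for H3.3cs1 early and purple inverted triangles for H3.3cs1 late. For IL8, IL1B and CXCL1 the red diamond stands apart at the right (6433, 2869.5 and 467 FPKM) while the other 3 marks lie close together at the left.

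Some proteases of the matrix rose by large folds and most others held. Of 16 metalloproteinases and TIMP inhibitors compared 6 rose and 0 fell, and because the other 10 stayed within 2-fold the median was 0.08, which changes sign when the libraries are set to the same sum. The stromelysin MMP3 was at 2.83 FPKM in growing cells, 2226 in OIS, 2.53 in early and 2.96 in late H3.3cs1 cells. MMP10 rose to 88.5 FPKM and the macrophage elastase MMP12 to 24.7, from 0.351 and 0.263. MMP1 and TIMP1, given above, were lowest in H3.3cs1 early and highest in OIS. TIMP2 stood at 429 FPKM in growing cells and 321 in OIS. MMP2 and MMP14 share loci with other genes: the LPCAT2,MMP2 locus went from 170.3 to 271 FPKM and the MMP14,MRPL52 locus from 433 to 1189 FPKM, the second passing 2-fold. ADAMTS1 and ADAMTSL1 fell, 2.8-fold and 7.86-fold, while ADAMTS4, which cuts aggrecan, rose from 1.08 to 4.13 FPKM.

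Both plasminogen activators rose. PLAT, the tissue activator, was at 111 FPKM in growing cells, 2242 in OIS, 22.7 in early and 67.8 in late H3.3cs1 cells. PLAU (urokinase) was at 354 FPKM in growing cells, 2214 in OIS, 87.6 in early and 143 in late H3.3cs1 cells. Both were lowest in H3.3cs1 early. PLAUR, the urokinase receptor, was at 135 FPKM in growing cells and 189 in OIS, within 2-fold. SERPINB2 (PAI-2), mostly an intracellular inhibitor, was at 14.6 FPKM in growing cells, 1164 in OIS, 7.46 in early and 35.4 in late H3.3cs1 cells, a 74.7-fold rise. The anticoagulant receptor THBD (thrombomodulin) rose to 44.6 FPKM from 0.0803 and TFPI2, an inhibitor of plasmin and tissue factor, to 2162 from 64.3, while tissue factor itself, F3, rose 2.66-fold to 344 FPKM. Of 15 genes of the list 8 rose. S100A10, a plasminogen receptor, fell 2.11-fold and coagulation factor F10 3.46-fold.

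Of 17 cathepsins and cystatins, the latter being inhibitors of cysteine proteases, 6 rose and 2 fell. CST1 was at 0.155 FPKM in growing cells, 138 in OIS, 0 in early and 0.143 in late H3.3cs1 cells. CST3 (cystatin C) rose from 132 to 636 FPKM, CST2 to 3.83 FPKM, and CST4 was at 33.1 FPKM in OIS and is listed at 0 in growing cells. CST1, CST2 and CST4 are close copies, so their separate values are uncertain. Cathepsin S (CTSS) rose from 0.125 to 15.5 FPKM and cathepsin B (CTSB) from 328 to 781 FPKM, while CTSD stood at 177 FPKM in growing cells and 178 in OIS and CTSL1 within 2-fold. Cathepsin H (CTSH) fell from 2.14 to 0.399 FPKM, and CST6 was at 1.62 FPKM in growing cells and is listed at 0 in OIS. In the serpin list 7 of 15 rose and 1 fell, that being SERPINH1 (HSP47), the chaperone of collagen, at 534 FPKM in growing cells, 169 in OIS, 244 in early and 513 in late H3.3cs1 cells.

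Collagens went both ways, with 5 higher and 5 lower of 22 compared. COL1A1 and COL1A2, the chains of fibrillar collagen I, stood at 4156, 1012, 1862 and 5172 FPKM and 2200.1, 691, 1242 and 2719.8 FPKM in the growing, OIS, early and late libraries, lowest in OIS in both cases. COL5A2 and COL8A1 fell from 109.8 to 45.4 FPKM and from 92.8 to 22.7 FPKM. Collagen VI, which forms beaded microfibrils, rose in COL6A2 from 1093 to 2818 FPKM, while COL6A1 (938 FPKM in growing cells and 1816 in OIS) and COL6A3 (538 FPKM in growing cells and 1018 in OIS) came close to 2-fold without passing it. COL10A1, a chain typical of growth plate cartilage, rose from 0.0437 to 13 FPKM and COL4A6, of basement membranes, from 0.361 to 9.45 FPKM. The COL3A1,MIR3606 locus went from 216 to 132 FPKM. Among processing enzymes 15 of 17 stayed within 2-fold, P4HB being at 645 FPKM in growing cells and 645 in OIS.

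Elastic fibres and proteoglycans had fallers and no riser. Of 20 genes of elastic fibres and lysyl oxidases 11 fell and 0 rose (median -1.03). LOX was at 362 FPKM in growing cells, 50.8 in OIS, 222 in early and 687 in late H3.3cs1 cells. FBLN2 (fibulin 2) fell 4.25-fold, MFAP4 3.26-fold and FBN1 (fibrillin 1) from 70.5 to 31.2 FPKM, whereas LOXL2 stayed at 329 FPKM in growing cells and 239.6 in OIS. Of 17 proteoglycans 6 fell and 0 rose, and with both libraries set to the same sum 11 fell. LUM (lumican) was at 34.7 FPKM in growing cells, 12.5 in OIS, 20.2 in early and 137 in late H3.3cs1 cells, with late H3.3cs1 cells highest and OIS lowest. Syndecans SDC1, SDC3 and SDC4 fell by 2.99, 2.13 and 2.21-fold, and BGN (biglycan) held at 169 FPKM in growing cells and 165 in OIS. HAS2, which makes hyaluronan, fell from 34 to 13.1 FPKM, while TNFAIP6, an inflammatory hyaluronan-binding protein, rose from 1.37 to 14.9 FPKM.

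Of 13 matricellular proteins, which tune how cells hold on to the matrix, 4 rose and 3 fell (5 with the same sum). POSTN (periostin) was at 19.5 FPKM in growing cells, 387 in OIS, 14.6 in early and 59.8 in late H3.3cs1 cells. TNC (tenascin C) was at 63.8 FPKM in growing cells, 343 in OIS, 60.1 in early and 35.3 in late H3.3cs1 cells, and TGFBI rose from 502 to 1583 FPKM. SPARC was at 1146 FPKM in growing cells, 482 in OIS, 441 in early and 1945 in late H3.3cs1 cells. THBS1 (thrombospondin 1) was at 747 FPKM in growing cells, 344 in OIS, 414 in early and 1413 in late H3.3cs1 cells. CYR61 fell 2.82-fold. FN1 (fibronectin) was level at 2215 FPKM in growing cells, 2307 in OIS, 2275 in early and 2507 in late H3.3cs1 cells. The first 3 were highest in OIS, and SPARC, THBS1 and CYR61 were highest in late H3.3cs1 cells.

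Actin and stress fibre genes lay lower in OIS. Of 35 listed, 29 were compared, 16 fell, 0 rose and 29 lay below 0 (median -1.04). TAGLN, an actin-bundling protein of smooth muscle, was at 1596 FPKM in growing cells, 117 in OIS, 946 in early and 2336 in late H3.3cs1 cells. ACTA2, the alpha-actin of myofibroblasts, was at 392 FPKM in growing cells, 62.3 in OIS, 128 in early and 608 in late H3.3cs1 cells. CNN1 (calponin) was at 67.4 FPKM in growing cells, 6.68 in OIS, 43.8 in early and 188 in late H3.3cs1 cells. In these 3 genes OIS was lowest and late H3.3cs1 highest. The tropomyosins divided, TPM1 falling 2.81-fold and TPM2 2.12-fold while TPM3 (180.3 FPKM in growing cells and 165 in OIS) and TPM4 (561 FPKM in growing cells and 452 in OIS) held. The list's sum went from 10188 to 4341 FPKM. SRF, the factor that binds CArG boxes, was at 20.4 FPKM in growing cells and 17.9 in OIS.

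Targets of YAP and TAZ, which read tension in the cytoskeleton, lay lower, with 7 of 20 falling and 0 rising. ANKRD1 was at 8.07 FPKM in growing cells, 0.382 in OIS, 4.31 in early and 135 in late H3.3cs1 cells. CRIM1 was at 198 FPKM in growing cells, 32.7 in OIS, 81.6 in early and 230.3 in late H3.3cs1 cells, and AJUBA fell 3.15-fold. CTGF, at 366 FPKM in growing cells, 197 in OIS, 149.8 in early and 1267 in late H3.3cs1 cells, did not pass 2-fold. YAP1 stood at 52.7 FPKM in growing cells and 59.9 in OIS, and WWTR1 (TAZ) at 23.8 FPKM in growing cells and 48.1 in OIS, just under 2-fold on the higher side.

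Adhesion receptors went both ways, with 7 of 26 compared higher and 8 lower. CDH2 (N-cadherin) was at 45.9 FPKM in growing cells, 7.54 in OIS, 20.7 in early and 29 in late H3.3cs1 cells, and CDH11, the fibroblast cadherin, fell from 48.5 to 16 FPKM. CLDN11 fell from 123 to 8.22 FPKM and ALCAM from 136 to 22.3 FPKM. VCAM1, which binds leukocytes, rose from 1.39 to 6.89 FPKM, and the ICAM1,ICAM4 locus was at 3.7 FPKM in growing cells, 218 in OIS, 6.56 in early and 4.1 in late H3.3cs1 cells. L1CAM rose 4.3-fold, CLDN1 3.58-fold and the gap junction gene GJA1 (connexin 43) 3.26-fold to 331 FPKM. Of integrins ITGB3 rose from 8.72 to 36.6 FPKM and ITGA11 from 4.21 to 12 FPKM, ITGA4, ITGA7 and the related ITGBL1 fell, and ITGB1 was at 1284 FPKM in growing cells and 1503 in OIS. KRT18, a keratin that fibroblasts can make, fell from 80.0 to 13.1 FPKM. The LCE genes, which encode proteins of the skin's cornified envelope, rose in OIS, LCE1F to 132 FPKM from 0.397 and LCE2C to 77.9 from 0.249.

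In the TGF-beta superfamily 7 of 40 genes rose and 7 fell. GDF15, a stress-induced ligand that acts on the brain stem, was at 41.9 FPKM in growing cells, 1583 in OIS, 34.4 in early and 132 in late H3.3cs1 cells. BMP2 was at 0.187 FPKM in growing cells, 170.4 in OIS, 0.367 in early and 0.284 in late H3.3cs1 cells. INHBA, the activin A subunit, was at 41.1 FPKM in growing cells, 781 in OIS, 27.4 in early and 37.5 in late H3.3cs1 cells. These 3 were highest in OIS. TGFB1 was at 97.7 FPKM in growing cells and 135 in OIS, TGFB2 fell from 4.23 to 1.15 FPKM, and the activin antagonist FST (follistatin) was at 177 FPKM in growing cells, 39.2 in OIS, 160.2 in early and 332 in late H3.3cs1 cells. ACVRL1, the ALK1 receptor, rose from 1.3 to 23.5 FPKM, and receptors TGFBR1 and TGFBR2 stayed within 2-fold.

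Of WNT receptors of the frizzled family 3 fell, FZD6 among them, and FZD8 rose. FZD2 fell from 44.1 to 3.92 FPKM and FZD7 from 94.7 to 15.5 FPKM, while FZD8 went from 4.51 to 26.7 FPKM. The antagonist DKK1 was at 65.4 FPKM in growing cells, 5.31 in OIS, 27.9 in early and 67.7 in late H3.3cs1 cells. Another, SFRP1, was at 350.1 FPKM in growing cells, 117 in OIS, 359.8 in early and 265 in late H3.3cs1 cells. Both were lower in OIS than in every other library. WNT5A held at 113 FPKM in growing cells and 118 in OIS, WNT5B fell 3.84-fold and WNT9A rose from 0.683 to 5.77 FPKM. In the NOTCH list 7 of 17 rose and 0 fell. The targets HEY1 and HES1 rose from 0.647 to 8.65 FPKM and from 1.01 to 3.79 FPKM, NUMB from 36.3 to 201 FPKM, and the receptors NOTCH1, NOTCH2 and NOTCH3 stayed within 2-fold.

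Growth factor systems had 8 higher and 8 lower of 30. HGF, a mitogen for epithelia, was at 9.64 FPKM in growing cells, 111 in OIS, 5.25 in early and 5.12 in late H3.3cs1 cells. Its receptor MET was at 13.3 FPKM in growing cells, 1.07 in OIS, 12.2 in early and 12.5 in late H3.3cs1 cells, so ligand and receptor went apart in OIS. VEGFA, which drives vessel growth, rose 8.32-fold to 177 FPKM and FGF2 6.72-fold to 111. GDNF rose from 0.836 to 22.3 FPKM, whereas the neurotrophins BDNF and NTF3 fell from 49.9 to 9.23 FPKM and from 15 to 2.24 FPKM. PDGFRB fell 2.56-fold, and PDGFRA was at 27.3 FPKM in growing cells and 52.3 in OIS. IGF binding proteins differed among themselves: IGFBP5 rose from 844 to 1916 FPKM (within 2-fold with the same sum), IGFBP3 was at 296 FPKM in growing cells, 48.8 in OIS, 35.8 in early and 1023 in late H3.3cs1 cells, and IGFBP7 held at 289 FPKM in growing cells and 257 in OIS.

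Of 25 genes of hormone and peptide signalling 7 rose and 6 fell. STC1 (stanniocalcin 1), a secreted glycoprotein, was at 35.9 FPKM in growing cells, 1379 in OIS, 11.5 in early and 7.16 in late H3.3cs1 cells. BDKRB2, a bradykinin receptor, rose 10.4-fold and the peptide gene GAL 8.11-fold. KISS1, the kisspeptin precursor, was at 73 FPKM in growing cells, 1.73 in OIS, 5.43 in early and 81.5 in late H3.3cs1 cells. OXTR, the oxytocin receptor, was at 22.7 FPKM in growing cells, 0.165 in OIS, 10.4 in early and 52.2 in late H3.3cs1 cells. Both were lowest in OIS and highest in H3.3cs1 late. EDN1 (endothelin 1) fell from 11.2 to 1.94 FPKM. SLIT2, an axon guidance ligand, fell from 10.8 to 0.607 FPKM. Potassium channel genes went in opposite directions, KCNG1 from 20.5 to 130.4 FPKM and KCNK2 from 17.5 to 0.367 FPKM. GABRA2, a GABA receptor subunit, rose to 73.6 FPKM from 0.269.

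The genes of cell division formed the other pole. Among inhibitors of cyclin-dependent kinases, CDKN2B (p15) was at 3.43 FPKM in growing cells, 37.3 in OIS, 4.62 in early and 20.5 in late H3.3cs1 cells. CDKN1A (p21) was at 363 FPKM in growing cells, 1500.2 in OIS, 612 in early and 859 in late H3.3cs1 cells. CDKN2A (p16 and ARF) was at 18.1 FPKM in growing cells, 59.8 in OIS, 25.3 in early and 43.5 in late H3.3cs1 cells. In each, growing cells were lowest, OIS highest and late H3.3cs1 cells second. CDKN2C (p18) was at 13.4 FPKM in growing cells, 0.615 in OIS, 3.3 in early and 0.592 in late H3.3cs1 cells. The phosphatase CDKN3 was at 23.5 FPKM in growing cells, 0.73 in OIS, 4.39 in early and 1.68 in late H3.3cs1 cells. Both were lower in the other 3 libraries than in growing cells. CDKN1B (p27) stood at 13.2 FPKM in growing cells and 8.24 in OIS.

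Most cyclins and factors of the G1 phase held. Of 26 genes 1 rose and 6 fell. CDK4 was at 49.8 FPKM in growing cells and 36.6 in OIS, CDK6 at 16.6 FPKM in growing cells and 14.6 in OIS, RB1 at 11.3 FPKM in growing cells and 13.8 in OIS and CCNE1 at 4.55 FPKM in growing cells and 7.38 in OIS, all within 2-fold. FOXM1, the activator of mitotic genes, was at 26.5 FPKM in growing cells, 0.817 in OIS, 7.16 in early and 1.45 in late H3.3cs1 cells. MYBL2 (B-MYB), its partner in the MuvB complex, was at 13.3 FPKM in growing cells, 0.187 in OIS, 2.1 in early and 0.727 in late H3.3cs1 cells. E2F7, a repressor of E2F targets that p53 induces, rose from 6.08 to 23 FPKM. The E2F1,PXMP4 locus fell from 13.5 to 4.27 FPKM.

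DNA replication genes lay lower, with 31 of 49 lower, 0 higher and a median of -1.48. The helicase and licensing genes fell and some other parts held. MCM2, a subunit of the replicative helicase, was at 14.9 FPKM in growing cells, 1.26 in OIS, 6.29 in early and 2.51 in late H3.3cs1 cells. MCM5, of the same ring, was at 30.6 FPKM in growing cells, 3.45 in OIS, 10.1 in early and 4.2 in late H3.3cs1 cells, and all of the 6 core helicase genes MCM2 to MCM7 fell, MCM6 the least at 2.82-fold. Licensing factors CDC6 and CDT1 fell from 8.79 to 0.601 FPKM and from 11.3 to 3.13 FPKM, and their inhibitor GMNN (geminin) from 22.3 to 3.17 FPKM. Origin recognition subunits ORC1 and ORC6 fell, while ORC2, ORC3, ORC4 and ORC5 stayed within 2-fold, as did the single-strand binding proteins RPA1, RPA2 and RPA3. PCNA was at 67.9 FPKM in growing cells, 23.6 in OIS, 47.4 in early and 25.2 in late H3.3cs1 cells. Of 24 genes of nucleotide supply 9 fell, 1 rose and 14 stayed within 2-fold. TK1, a thymidine kinase, was at 63.1 FPKM in growing cells, 2.08 in OIS, 12.3 in early and 4.82 in late H3.3cs1 cells. RRM2, the S-phase subunit of ribonucleotide reductase, was at 62.5 FPKM in growing cells, 3.74 in OIS, 10.3 in early and 2.41 in late H3.3cs1 cells. Its p53-induced counterpart RRM2B was at 12.4 FPKM in growing cells, 48.2 in OIS, 24.2 in early and 14.7 in late H3.3cs1 cells. In these last genes the S-phase forms were lowest or near lowest in OIS and RRM2B was highest there.

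In mitosis the spindle list had 29 of 33 genes lower, the kinetochore list 27 of 39 and the mitotic kinesins 12 of 13, with 0 higher in each of the 3. PLK1, a kinase needed for spindle assembly, was at 57.4 FPKM in growing cells, 0.647 in OIS, 8.9 in early and 2.44 in late H3.3cs1 cells. CDK1, the kinase of mitotic entry, was at 31.3 FPKM in growing cells, 0.442 in OIS, 5.74 in early and 1.07 in late H3.3cs1 cells. Its cyclin CCNB1 was at 61 FPKM in growing cells, 2.71 in OIS, 15.5 in early and 5.62 in late H3.3cs1 cells. AURKB, the kinase of the passenger complex, was at 29.8 FPKM in growing cells, 0.806 in OIS, 5.42 in early and 1.43 in late H3.3cs1 cells. BIRC5 (survivin), of the same complex, was at 32.3 FPKM in growing cells, 0.704 in OIS, 5.92 in early and 1.33 in late H3.3cs1 cells. Of the joined loci with mitotic genes, BUB1B,PAK6 fell from 14.1 to 0.219 FPKM and KIF23,PAQR5 from 27.8 to 11.9 FPKM. The CIT,MIR1178 locus (5.46 FPKM in growing cells and 3.46 in OIS) was lower without passing 2-fold. So was the locus that joins PMF1 and BGLAP (24.2 FPKM in growing cells and 12.3 in OIS). The order was the same in PLK1, CDK1, CCNB1, AURKB and BIRC5: growing highest, H3.3cs1 early next, late below that and OIS lowest. Ki-67 (MKI67) went to 0.0897 FPKM from 17.6. The motor proteins KIF20A and KIF2C fell from 27.4 to 0.178 FPKM and from 20.7 to 0.256 FPKM. Kinetochore genes spread widely, from NUF2 (-3.79) and CENPM (-3.77) to CENPC1 (-0.25), MIS12 (-0.59) and BUB3 (-0.83), the last 3 within 2-fold.

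Not every part of the machinery took part. The anaphase-promoting complex is a ubiquitin ligase that acts in mitosis, and 16 of 20 genes of that list stayed within 2-fold. CDC20, its mitotic activator, was at 63.8 FPKM in growing cells, 0.84 in OIS, 10.1 in early and 2.36 in late H3.3cs1 cells. Its ubiquitin-conjugating enzyme UBE2C was at 98.6 FPKM in growing cells, 2.16 in OIS, 16.8 in early and 3.73 in late H3.3cs1 cells. PTTG1 (securin), a substrate, fell from 85.3 to 13.3 FPKM and FBXO5 (EMI1), an inhibitor, from 11.9 to 1.17 FPKM. The core subunit ANAPC1 was at 7.97 FPKM in growing cells and 6.33 in OIS, CDC27 at 23.2 FPKM in growing cells and 20.2 in OIS and FZR1 (CDH1), the activator of G1, at 20.7 FPKM in growing cells and 16.4 in OIS. Kinesins that carry cargo, in contrast to those of the spindle, had 2 of 13 higher and 0 lower, with KIF5B at 53.4 FPKM in growing cells and 60.9 in OIS. TOP2A, the topoisomerase of dividing cells, was at 44.2 FPKM in growing cells, 1.25 in OIS, 10.1 in early and 1.41 in late H3.3cs1 cells, and TOP2B, which resting cells also use, at 27.6 FPKM in growing cells and 24 in OIS. Condensin I subunits NCAPG and NCAPH fell from 14.8 to 0.118 FPKM and from 9.28 to 0.179 FPKM, while the cohesin regulators NIPBL, STAG1, STAG2 and PDS5A stayed within 2-fold and SMC3 fell 2.1-fold.

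**Figure D5:**
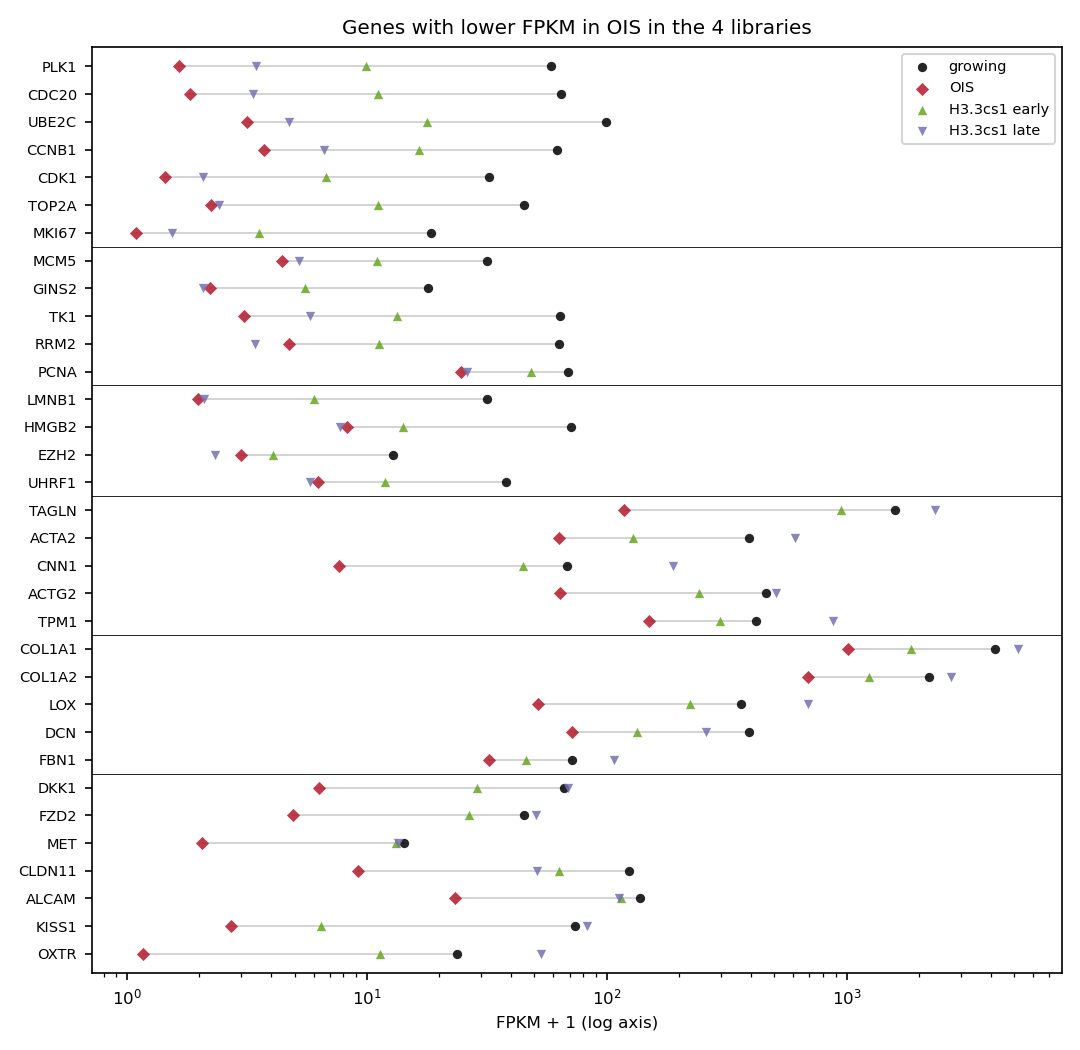
Level of 33 genes that were lower in OIS in the 4 libraries as FPKM + 1 on a log axis, with black circles for growing, red diamonds for OIS, green triangles for H3.3cs1 early and purple inverted triangles for H3.3cs1 late. For PLK1, CDC20 and UBE2C the marks run from growing on the right through early and late to OIS on the left (PLK1 57.4, 8.9, 2.44 and 0.647 FPKM), while for TAGLN, ACTA2 and CNN1 the late mark lies furthest right.

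Of 45 DNA repair and checkpoint genes 21 fell and 0 rose. Those of homologous recombination and interstrand crosslink repair, which act in S phase, were among them: FANCD2 fell from 4.25 to 0.215 FPKM and EXO1 from 4.04 to 0.0299 FPKM. The damage kinases ATM (8.0 FPKM in growing cells and 11.7 in OIS) and ATR (4.25 FPKM in growing cells and 4.38 in OIS) and the end-joining ligase LIG4 (5.77 FPKM in growing cells and 9.3 in OIS) stayed within 2-fold. MDM2, a p53 target that restrains p53, was level at 19.8 FPKM in growing cells and 19.8 in OIS. Of 30 genes in the p53 list 7 rose and 2 fell, and besides GDF15, CDKN1A and RRM2B the risers were PLK3, PMAIP1, BTG2 and BBC3. The median, 0.21, goes to -0.01 when both libraries are set to the same sum. Among genes of cell death BCL2A1, a survival protein that NF-kappaB induces, rose to 60.2 FPKM from 0.109, and MCL1, also a survival protein, was at 75.1 FPKM in growing cells, 618 in OIS, 59.8 in early and 57.6 in late H3.3cs1 cells. BAX, which opens the mitochondrial membrane, stood at 119 FPKM in growing cells and 133 in OIS.

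At the nuclear envelope 6 of 15 genes fell and 0 rose. Lamin B1 (LMNB1) was at 30.8 FPKM in growing cells, 0.989 in OIS, 5.03 in early and 1.09 in late H3.3cs1 cells. Lamin A (LMNA) was at 486 FPKM in growing cells, 228 in OIS, 443 in early and 357 in late H3.3cs1 cells, and LBR, the lamin B receptor, fell from 14.4 to 4.09 FPKM, while emerin (EMD) held at 58.7 FPKM in growing cells and 50.4 in OIS. Of 43 Polycomb, histone and DNA methylation enzymes 4 fell (7 with the same sum) and 1 rose. EZH2, the methyltransferase of Polycomb complex 2, was at 11.9 FPKM in growing cells, 1.99 in OIS, 3.07 in early and 1.33 in late H3.3cs1 cells, but its partners SUZ12 (11.5 FPKM in growing cells and 13.6 in OIS) and EED (9.09 FPKM in growing cells and 7.22 in OIS) stayed within 2-fold and EZH1, its homologue, was at 5.85 FPKM in growing cells and 4.68 in OIS. UHRF1 and DNMT1, which copy DNA methylation after replication, fell from 37.2 to 5.26 FPKM and from 33.3 to 14.1 FPKM, and JARID2 rose from 3.43 to 11.6 FPKM. HMGB2, a chromatin protein known to be lost in senescence, fell from 69.7 to 7.26 FPKM, whereas HMGA1 was at 667 FPKM in growing cells and 1287 in OIS. CENPA, the centromeric form of histone H3, fell from 9.51 to 0.303 FPKM, and DAXX, a chaperone of H3.3, rose from 47.3 to 113 FPKM (within 2-fold with the same sum) while HIRA (10.6 FPKM in growing cells and 10.8 in OIS) and H3F3A (190.5 FPKM in growing cells and 236 in OIS) did not pass. Histone genes of the clusters are mostly without a poly(A) tail, so their values here are not those of the whole transcripts, and 5 of 16 rose and 3 fell (2 and 3 with the same sum).

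Stress responses were selective. SOD2, the mitochondrial superoxide dismutase and an NF-kappaB target, was at 29.7 FPKM in growing cells, 307 in OIS, 45 in early and 25.3 in late H3.3cs1 cells, but of the 28 antioxidant genes 22 stayed within 2-fold, NQO1 at 48.8 FPKM in growing cells and 46.9 in OIS and GCLM at 8.42 FPKM in growing cells and 9.68 in OIS. HMOX1 fell from 12.8 to 4.74 FPKM and stood at 69 FPKM in H3.3cs1 early. Metallothioneins, which bind zinc and copper, had MT1X from 30.5 to 308 FPKM and MT2A from 2804 to 6311 FPKM on the higher side and MT1E from 234 to 50.8 FPKM on the lower, and reads of these close copies may be shared out. Small heat shock proteins fell, HSPB1 with 813 FPKM in growing cells, 287 in OIS, 812 in early and 1076 in late H3.3cs1 cells and HSPB8 from 17.7 to 4.24 FPKM, while HSPD1 (152 FPKM in growing cells and 164 in OIS) and HSPA5 (342 FPKM in growing cells and 310.0 in OIS) were level. TRIB3 rose from 10.4 to 68 FPKM, and 3 enzymes of serine and asparagine synthesis fell, PSAT1 from 53.3 to 7.06 FPKM, PHGDH from 54.2 to 11.6 FPKM and ASNS from 31.1 to 7.74 FPKM, and ATF4, an activator of such genes, was level at 197 FPKM in growing cells and 219.5 in OIS.

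Of 34 genes of glucose use 7 rose and 1 fell. HK2, a hexokinase, rose from 6.23 to 30.3 FPKM and the glucose transporter SLC2A3 (GLUT3) from 24.2 to 76.2 FPKM, while SLC2A1 (GLUT1) was at 94.7 FPKM in growing cells, 22.8 in OIS, 31.7 in early and 169 in late H3.3cs1 cells. HIF1A rose from 76.4 to 212 FPKM. LDHA, which makes lactate, stayed within 2-fold at 424 FPKM in growing cells and 334 in OIS. Respiratory chain genes had 46 of 52 above 0 (median 0.37) but 2 past 2-fold, NDUFV2 and UQCRH (1 with the same sum). That median is of the same order as the -0.21 by which scaling to the same sum moves all genes. Among sterol genes INSIG1, which holds back sterol synthesis, rose 4.39-fold and IDI1, FDFT1 and MSMO1 rose 2.36, 2.31 and 2.49-fold.

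Transporters of amino acids included a rise of SLC6A15 from 4.79 to 102 FPKM beside falls of SLC7A5 from 93.8 to 24.3 FPKM, SLC3A2 from 132 to 42.3 FPKM and SLC7A11, the cystine carrier, from 12 to 2.77 FPKM. SLC16A6, a monocarboxylate carrier, was at 1.06 FPKM in growing cells, 91.1 in OIS, 0.671 in early and 0.87 in late H3.3cs1 cells. NAMPT, which makes a precursor of NAD and is known in senescence for its link to the secretory phenotype, was at 9.91 FPKM in growing cells, 243 in OIS, 11.3 in early and 6.13 in late H3.3cs1 cells, and KYNU, which breaks down kynurenine from tryptophan, came to 41.7 FPKM from 0.598. Both were highest in OIS of the 4 libraries.

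Lysosomal and autophagy genes moved in single members, 7 of 31 and 2 of 28 being higher (5 and 1 with the same sum). NPC1, which exports cholesterol from lysosomes, rose from 4.23 to 22.1 FPKM and the autophagy protein WIPI1 from 33.4 to 105 FPKM, while LAMP1 was at 239 FPKM in growing cells and 164 in OIS and TFEB at 2.32 FPKM in growing cells and 2.14 in OIS. The GLB1,TMPPE locus, which holds the gene of the beta-galactosidase used as a stain for senescence, was at 32.3 FPKM in growing cells and 39.7 in OIS, within 2-fold. Of 27 splicing factors 8 fell (13 with the same sum, and then 0 rose), HNRNPM furthest from 131 to 34.1 FPKM and SRSF3 from 64.1 to 22 FPKM, and 1 rose, SRSF5 from 71.7 to 164 FPKM.

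Some changed genes are neighbours on their chromosomes. With gene order from RefSeq on GRCh38.p14, an assembly other than that of the files, 10896 of 11090 symbols (98.3%) were placed, and runs of at least 4 compared genes past 2-fold in the same direction numbered 8 on the higher side and 2 on the lower. The longest run was IL8, CXCL6, CXCL1, CXCL5, CXCL3, CXCL2, MTHFD2L, EREG and AREG, 9 genes with differences from 1.17 to 10.44, in which MTHFD2L, a mitochondrial folate enzyme, had the smallest (1.69 to 5.06 FPKM). Another run held the proteases MMP7, MMP10, MMP1, MMP3 and MMP12 and the pseudogene WTAPP1, from 1.81 to 9.18, in which overlapping genes may share reads. LCE3A, LCE2D, LCE2C, LCE2B, LCE2A and LCE1F made a run of 6, and CST3, CST4, CST1 and CST2 a run of 4. Runs of lower genes were SLC38A1, SLC38A2, SLC38A4 and AMIGO2, and the tubulin genes TUBA1B, TUBA1A and TUBA1C with TROAP. PTGS2 and PLA2G4A, both of prostaglandin synthesis, lay in a run of 3 with RGS2. Families of near copies lie side by side in the genome, so genes of a run are not independent of each other. Genes below 1 FPKM in both libraries were not compared, so they could not break a run. Members below 1 FPKM in growing cells, such as CXCL1, CXCL5, EREG, AREG, LCE1F and CST1, entered through OIS and could not have counted as lower.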

How the data were processed

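Poly(A) RNA from 4 cultures of IMR90 cells was sequenced after TruSeq v2 preparation, per the labels' protocols. The authors deposited 1 table per library with an FPKM value for each of 26468 loci; TopHat2 2.0.3, Bowtie2, Cufflinks 2.1.1 and hg19 are named in the submitters' processing notes, with no role or order, and any scaling between libraries is not given in the sources used here. Each table has a shifted header: the heading above its FPKM column carries the name of another library. Tables were assigned by their deposition record, and HRAS was high in the table so assigned to OIS. The 2310 unnamed loci were left out, lines of the same symbol were summed, and loci that join several genes kept the joined name. FPKM hold no read totals; the lowest values put the OIS, early and late libraries at about 81.8%, 96.1% and 76.4% of the depth of the growing library. With 1 library a group only differences of log2(FPKM + 1) were computed (Python 3.11.15, pandas 2.3.3, numpy 2.4.6), with a threshold of 2-fold. The arithmetic of the fold rule was checked on simulated data, with changes set well past 2-fold in genes well above the minimum. That check does not bear on the error of the rule in these libraries. Columns without a sample numbered 0.

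Members, lists and motifs were chosen with earlier results of these data known. Genes to name were drawn from the 40 largest rises and 40 largest falls above 0 in both libraries and at 5 FPKM or more in the higher, from every list the 6 members that differed most, all past 2-fold where they were fewer than 12, and those that define it, the 20 highest genes of each library, the longest runs of neighbours, and genes above 20 FPKM in 1 library and at 0 in the other. Not all of these are named, and some genes named as level were chosen after their values were seen. Promoters came from RefSeq windows on GRCh38.p14, matched by symbol, and gene order from the same assembly. Alternatives were another pseudocount, filters, scalings, the highest line per symbol, and leaving out joined loci or values of 0. A few genes of the lists are not reported here.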

Additional observations from a re-analysis of the deposited data

How the results depend on the processing

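The counts of 1112 higher and 995 lower genes stayed within 1.5 times under all 9 alternatives, from 836 to 1431 higher and from 736 to 1406 lower. Leaving out the filter on low values could not change them. With 1 FPKM added, a gene below 1 FPKM in both libraries cannot reach 2-fold. The share of changed genes that were higher moved from 52.8% to 50.4% with a pseudocount of 0.1 FPKM, to 37.6% with the same sum of named genes, to 49.5% with the median difference set to 0 and to 44.1% with equal upper quartiles, so the balance of directions depends on the scaling. None of the 80 largest rises and falls lost 2-fold under any of them. These were chosen for their size, at differences of at least 4.48 or at most -3.77, so that outcome was set by the choice. It says nothing about smaller differences. Of 84 list medians 7 changed sign between scalings (collagens, metalloproteinases, antioxidant genes, p53 genes, proteasome, reference genes and vasoactive genes), none larger than 0.21 in size as deposited. The same sum moved some list counts by over 1.5 times, among them NF-kappaB, histone, proteoglycan, matricellular, splicing and chromatin enzyme genes, whose values stand beside the counts. No paired analysis was possible because each group has 1 library. Without replicates or read counts, neither the spread between cultures nor the counting error of a value is known.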

Other observations

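Loci without a gene name, left out above, differed more often than named genes: of 840 at 1 FPKM or more in either library, 269 (32%) were at least 2-fold higher in OIS and 123 (14.6%) lower, with a median difference of 0.54. Their summed FPKM was 421461 in growing cells and 465735 in OIS, and the 10 highest in growing cells held 42.1% of it there and 42.7% in OIS. The files give no identity for these loci, and what they are was not tested.

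Some genes were listed at 0 in a single library while high in the others. PLXNB2, a semaphorin receptor, was at 106 FPKM in growing cells, 93 in early and 128 in late H3.3cs1 cells and is listed at 0 in OIS, and SH3PXD2A, an adaptor of invadopodia, was at 21.4, 17.5 and 23.9 FPKM in those libraries and is listed at 0 in OIS. MIR210, the locus of a small RNA known from low oxygen, was at 154 FPKM in OIS and is listed at 0 elsewhere. Whether these zeros are failed estimates was not tested.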
